A study of Mus musculus with 8 samples.

Results

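10 genes of neutrophils and of calprotectin were followed in the epididymal fat of obese mice: S100a8, S100a9, Csf3r, Cxcr2, Retnlg, Ngp, Camp, Ltf, Mpo and Elane. They were chosen by name, with earlier results of these data known. Each was read by the 1 probe set annotated to its symbol alone, and they were 10 of 18820 genes measured. The fat came from male C57BL/6 mice that had 2 weeks of a low-fat diet (10% of energy from fat) and then 16 weeks of a high-fat diet (45%). The wild-type mice gave 4 arrays, and the IL37-overexpressing transgenic mice (IL37TG) gave 4; the latter carry human IL37, which encodes a cytokine related to IL-1 that restrains innate inflammation and has no known mouse counterpart. Both groups ate the same diets, and no lean or untreated group was analysed here. The wild-type mice were purchased and the transgenic line had been described earlier; the promoter of the transgene and any litter relation between the groups are not given in the sources used here. Whether each numbered replicate was its own mouse is not stated, and p-values here therefore reflect the spread among these 8 samples alone, which may be partly technical.

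Neutrophils are short-lived white blood cells that reach tissues from the blood, drawn by chemokines that bind the receptor Cxcr2 and kept in supply by granulocyte colony-stimulating factor, which acts through the receptor Csf3r. S100a8 and S100a9 pair to form calprotectin, a calcium- and zinc-binding protein that neutrophils and monocytes carry in large amounts and that can signal through the receptor Tlr4. Mpo and Elane encode enzymes of the primary granules, and Ltf, Camp and Ngp encode proteins of the secondary granules. Granule genes are transcribed mostly in bone marrow precursors, so a mature neutrophil in a tissue holds little of their RNA. In the fat of mice on a high-fat diet, neutrophils are known as early and sparse arrivals beside a much larger number of macrophages.

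The arrays were alike in scale, with medians of 5.97 to 6.04 log2 units, and their small number limits the precision. No detection calls were used, so the levels of 990 odorant receptor genes, which fat is not known to use, served as a reference for dim probe sets. 95% of them had a mean at or below 4.62 log2 units. Over all genes the median difference between groups was 0.02 log2 units.

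S100a8 was lower in transgenic fat and its partner S100a9, at the level of background, was not seen to differ. S100a8 fell 2.85-fold and Csf3r 1.38-fold, and these were the 2 of 10 genes past the threshold (limma, Benjamini-Hochberg adjusted p at most 0.05), against 3.34% of all genes in either direction and 1.27% lower. None of the 10 rose past it, against 2.07% of all genes. At an unadjusted p of 0.05 the count was 4 of 10 (with Camp and Elane), against 20.6% of all genes. As the 10 genes were chosen with earlier results of these data known, these counts describe the list and are no test of it. The classical neutrophil genes Cxcr2, Ngp, Camp, Ltf and Mpo were not shown to be above background in either group. In all, 6 of the 10 genes had a mean at or below 4.62, and 4 (S100a8, Csf3r, Retnlg and Elane) lay above it. With the defining markers split in this way, the 10 genes are treated here as a list and not as a measure of neutrophils.

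**Figure D1:**
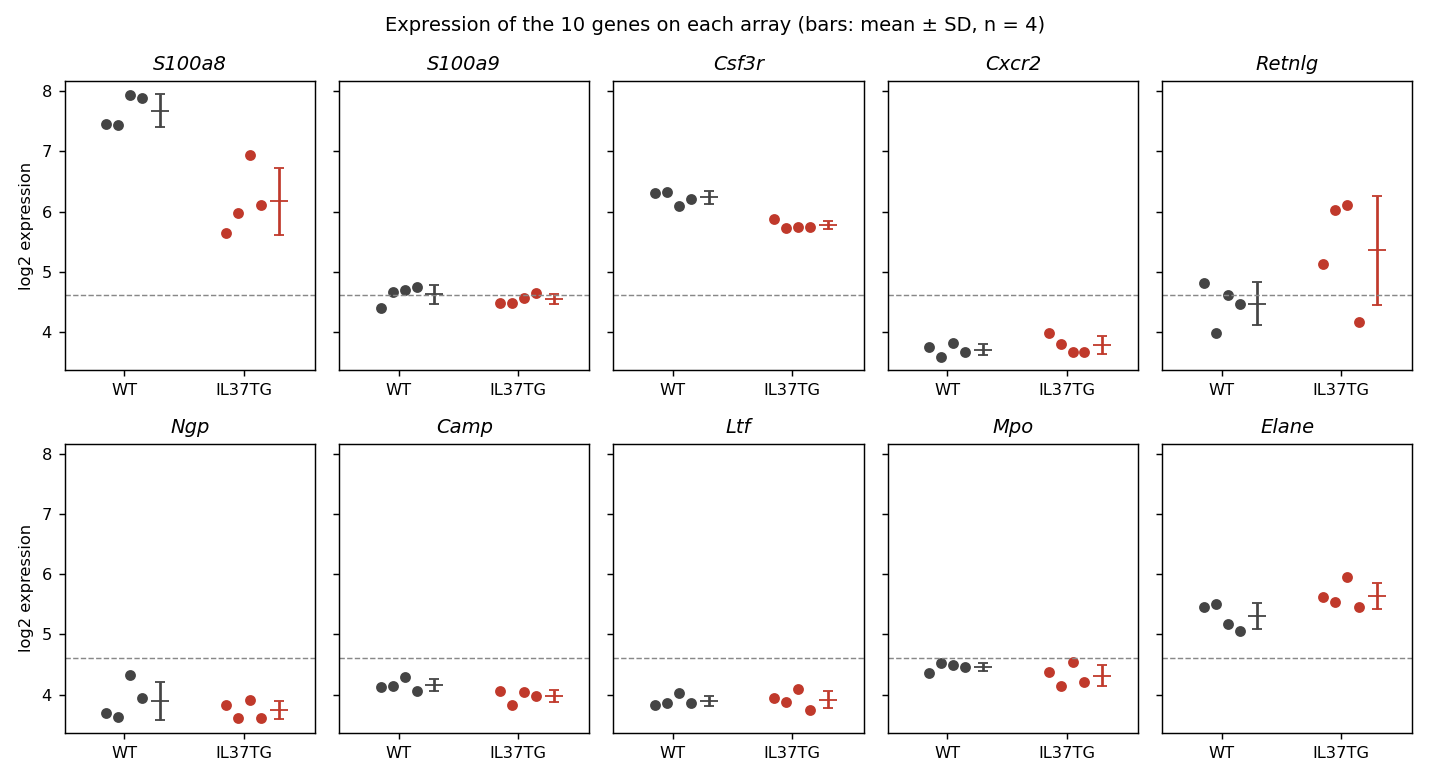
Log2 expression of each of the 10 genes on each array, with 4 wild-type arrays in grey and 4 IL37TG arrays in red; points are arrays, bars give mean ± SD, and the dashed line at 4.62 marks the 95th percentile of odorant receptor genes. S100a8 and Csf3r lie above the line with separate groups, and Cxcr2, Ngp, Camp, Ltf and Mpo lie below it on every array.

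S100a8, the smaller calprotectin subunit, read 7.45, 7.44, 7.93 and 7.89 log2 units in wild-type replicates 1 to 4 and 5.64, 5.97, 6.95 and 6.11 in transgenic replicates 1 to 4. Every transgenic array was below every wild-type array, with transgenic replicate 3 the nearest. The means were 7.68 ± 0.27 and 6.17 ± 0.55 (SD, n = 4 per group), a difference of -1.51 log2 units (SE 0.27, 95% interval -2.12 to -0.90, limma adjusted p = 0.0280). The call was lost on removal of wild-type replicate 1 (adjusted p = 0.0695), 2 (0.0610) or 4 (0.0975) or of transgenic replicate 1 (0.0647), 2 (0.0886) or 4 (0.0642), while the difference kept between -1.77 and -1.34. In tissue RNA, fewer cells of a type and less RNA per cell cannot be told apart.

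S100a9, the other calprotectin subunit, read 4.39, 4.67, 4.69 and 4.74 in wild-type and 4.48, 4.47, 4.57 and 4.65 in transgenic replicates 1 to 4. The groups overlapped and all 8 arrays were close to the reference of 4.62. Its difference was -0.08 (95% interval -0.28 to 0.12, limma adjusted p = 0.646), and because a probe set near background understates differences this interval bounds the probe signal, not the RNA. A fall of S100a9 RNA could not have been seen at this level.

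The promoters of the 2 genes that fell and of S100a9 are shown because they are the 2 called genes and the neighbour that pairs with S100a8 in calprotectin. In the RefSeq gene table for GRCm38.p6, S100a8 lies between S100a7a and S100a9 on chromosome 3. Each sequence is the 250 bases before the annotated start, read on the gene's strand (S100a8 at chr3:90668821-90669070, plus strand; S100a9 at chr3:90695722-90695971, minus strand; Csf3r at chr4:126024409-126024658, plus strand; RefSeq, GRCm38.p6). Capitals mark matches on either strand to TATAAA (the box that places many transcription starts), GCAAT (the core of sites for C/EBP factors) and GAGGAA (which holds the core of sites for PU.1), and where 2 matches touch they form 1 run of capitals.
S100a8: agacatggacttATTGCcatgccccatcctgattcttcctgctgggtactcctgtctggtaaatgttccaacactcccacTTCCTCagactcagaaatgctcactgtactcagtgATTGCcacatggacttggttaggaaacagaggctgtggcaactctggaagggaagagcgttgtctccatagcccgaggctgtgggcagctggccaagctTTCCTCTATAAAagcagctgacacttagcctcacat
S100a9: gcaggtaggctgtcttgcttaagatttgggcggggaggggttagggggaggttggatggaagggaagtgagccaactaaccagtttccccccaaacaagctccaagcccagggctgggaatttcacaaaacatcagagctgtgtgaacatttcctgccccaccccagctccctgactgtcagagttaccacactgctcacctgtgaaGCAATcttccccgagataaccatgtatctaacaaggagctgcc
Csf3r: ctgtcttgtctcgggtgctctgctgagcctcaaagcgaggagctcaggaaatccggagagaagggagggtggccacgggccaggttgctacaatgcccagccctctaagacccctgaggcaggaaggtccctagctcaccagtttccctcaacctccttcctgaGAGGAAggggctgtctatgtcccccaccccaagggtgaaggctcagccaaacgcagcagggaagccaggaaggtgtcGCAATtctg

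In these windows S100a8 had a TATAAA match that began 30 bases before the start, 2 GCAAT matches and 2 GAGGAA matches, 1 of which ended where the TATAAA match began. S100a9 had 1 GCAAT match, 43 bases before the start, and Csf3r had 1 GCAAT match 9 bases before the start and 1 GAGGAA match 86 bases before it. Of 32851 RefSeq promoter windows of this length, 12.4% held TATAAA, 23.1% GCAAT and 23.3% GAGGAA. The motifs were picked after the sequences had been read, and a match describes the letters and is not evidence of binding.

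Csf3r, the receptor that neutrophils, monocytes and some macrophages use to sense granulocyte colony-stimulating factor, read 6.31, 6.33, 6.09 and 6.20 in wild-type and 5.88, 5.72, 5.75 and 5.75 in transgenic replicates 1 to 4. The groups did not overlap, and transgenic replicate 1 lay above the other transgenic arrays. The means were 6.24 ± 0.11 and 5.77 ± 0.07 (SD, n = 4 per group; log2 difference -0.46, SE 0.07, 95% interval -0.62 to -0.30, limma adjusted p = 0.0201). The call was lost on removal of wild-type replicate 1 (adjusted p = 0.0650), 2 (0.0565) or 4 (0.0709) or of transgenic replicate 2 (0.0632) or 4 (0.0505).

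Both calls were also lost when a part of the array names was used as a block. The names hold a letter and a number whose meaning the labels do not state; letter G and the numbers 5, 7 and 9 occur in both groups. With the letter as a block, which rests on 2 wild-type arrays and 1 transgenic array, S100a8 differed by -2.27 (limma adjusted p = 0.0818) and Csf3r by -0.26 (adjusted p = 0.386). Within the numbers 5, 7 and 9, S100a8 differed by -1.96, -0.72 and -1.56 and Csf3r by -0.37, -0.51 and -0.52. With groups that do not overlap the sign of these values was fixed, so only their size is informative.

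Cxcr2, the chemokine receptor that brings neutrophils into tissue, read 3.76, 3.59, 3.81 and 3.67 in wild-type and 3.99, 3.80, 3.66 and 3.67 in transgenic replicates 1 to 4. All 8 arrays were below the reference and the groups overlapped (log2 difference 0.07, SE 0.09, limma adjusted p = 0.682). Retnlg, a resistin-like protein of neutrophils, varied more than any other of the 10 genes within the transgenic group. It read 4.82, 3.98, 4.62 and 4.46 in wild-type and 5.12, 6.02, 6.11 and 4.16 in transgenic replicates 1 to 4. 3 transgenic arrays were above all wild-type arrays, and transgenic replicate 4 was below all but 1 of them. The means were 4.47 ± 0.36 and 5.35 ± 0.91 (SD, n = 4 per group; log2 difference 0.88, limma adjusted p = 0.282), so the difference did not pass. On leaving out 1 array the difference ran from 0.63 (without transgenic replicate 3) to 1.28 (without transgenic replicate 4, limma adjusted p = 0.078). It did not pass in any alternative.

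The secondary granule genes were dim. Camp, the gene of the antimicrobial peptide cathelicidin, read 4.13, 4.15, 4.29 and 4.07 in wild-type and 4.07, 3.83, 4.04 and 3.98 in transgenic replicates 1 to 4. Its groups just failed to overlap (log2 difference -0.18, limma adjusted p = 0.221). This was a property of 3 of the 10 genes, all lower in transgenic fat, against 14% of all genes in either direction, 5.73% lower and 8.24% higher. That count too is a description, given how the 10 genes were chosen. Ngp, a granule protein related to cathelicidin, ranged from 3.63 to 4.33 in wild-type and from 3.61 to 3.91 in transgenic fat (log2 difference -0.16, limma adjusted p = 0.600). Ltf, the iron-binding lactoferrin, ranged from 3.84 to 4.03 and from 3.74 to 4.09 (log2 difference 0.02, limma adjusted p = 0.931). Wild-type replicate 3 had the highest wild-type value of Ngp, Camp and Ltf.

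The primary granule genes did not pass either. Mpo, the myeloperoxidase gene, ranged from 4.37 to 4.53 in wild-type and from 4.14 to 4.54 in transgenic fat (log2 difference -0.15, limma adjusted p = 0.415). Elane, the neutrophil elastase gene, read 5.46, 5.50, 5.18 and 5.06 in wild-type and 5.61, 5.54, 5.95 and 5.46 in transgenic replicates 1 to 4. 3 transgenic arrays exceeded all wild-type arrays, and the mean difference was 0.34 (SE 0.14, limma adjusted p = 0.209), opposite in sign to that of Mpo. The Elane difference was 0.06 without wild-type replicates 3 and 4 and transgenic replicate 3, a comparison chosen after seeing the data. In the RefSeq gene table Elane lies between Prtn3, which encodes the related proteinase 3, and Cfd. Prtn3 was higher on every transgenic array (5.06 ± 0.17 against 5.47 ± 0.09, SD, n = 4 per group; log2 difference 0.41) and missed the threshold (limma adjusted p = 0.0586).

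**Figure D2:**
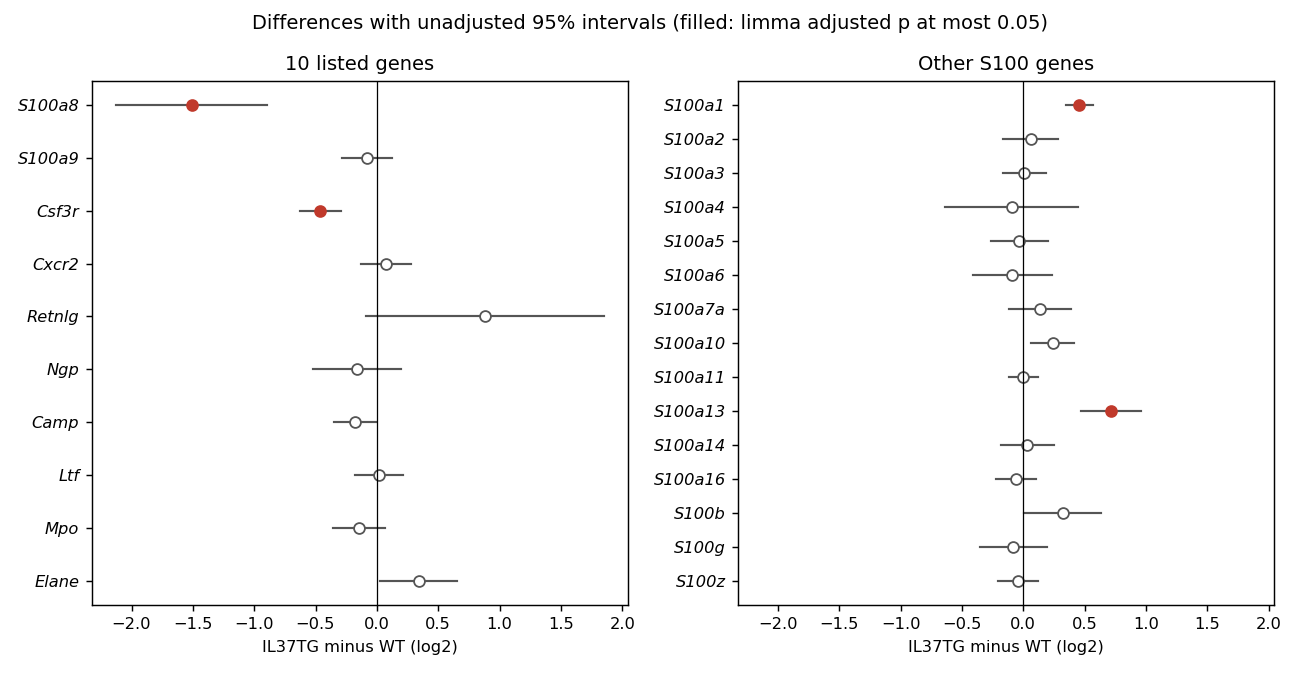
Difference in log2 expression, IL37TG minus wild type, with its unadjusted 95% interval from limma, for the 10 listed genes (left) and 15 other S100 genes (right); filled points passed an adjusted p of 0.05. S100a8 (-1.51) and Csf3r (-0.46) are filled on the left, and S100a1 (0.46) and S100a13 (0.72) on the right.

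Other genes tied to neutrophils moved in both directions. Of 5 measured primary granule genes none passed, with a median difference of 0.11. Of 14 secondary and tertiary granule genes Mmp9 rose and Hp fell, 12 did not pass, and the median was -0.07. Mmp9, a gelatinase that macrophages and other tissue cells also make, rose 2.45-fold (6.19 ± 0.26 to 7.48 ± 0.47, SD, n = 4 per group, limma adjusted p = 0.0290). Hp, the haptoglobin gene, is one that fat cells themselves express strongly. It had a wild-type mean of 12.69 ± 0.09 and a transgenic mean of 12.17 ± 0.19 (SD, n = 4 per group, log2 -0.52, limma adjusted p = 0.0346). The Mmp9 call was lost without wild-type replicate 1, 2 or 4 or transgenic replicate 1 or 4, and the Hp call without wild-type replicate 1, 2 or 4 or transgenic replicate 1, 2 or 4. With the letter and the number of the array name as blocks, Mmp9 had adjusted p-values of 0.470 and 0.0727 and Hp of 0.266 and 0.0694 by limma.

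Lcn2, a siderophore-binding protein of secondary granules that fat cells and epithelia also make, was chosen for description after its values were seen. It read 10.49, 9.62, 11.31 and 11.02 in wild-type and 8.16, 9.25, 9.21 and 9.07 in transgenic replicates 1 to 4. The groups did not overlap and the difference of -1.69 (SE 0.39) just missed the threshold (limma adjusted p = 0.0583). It passed in 5 of 20 alternatives. Without wild-type replicates 3 and 4 and transgenic replicate 3 the difference was -1.23 (limma adjusted p = 0.197). As for S100a8, wild-type replicates 3 and 4 were the highest arrays and transgenic replicate 1 the lowest.

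Of 9 measured neutrophil receptors and surface markers, Csf3r was the 1 that passed, and the median difference was -0.05. Clec4d, a lectin receptor of myeloid cells, differed by -0.79 (limma adjusted p = 0.127). It did pass when wild-type replicate 3 was removed (-1.01), an array that had its lowest wild-type value, 4.77. Ly6g, Fpr1 and Fpr2 had no probe set with 1 symbol and were not analysed here. Of 9 genes for the chemokines and cytokines that attract or sustain neutrophils none passed, and 6 were at or below the reference. The 2 with the lowest p were Ppbp, a platelet chemokine that binds Cxcr2 (log2 0.46, limma adjusted p = 0.201), and Il23a (log2 0.15, limma adjusted p = 0.335).

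Of 15 other S100 genes, 12 of them on the same chromosome as S100a8, S100a1 and S100a13 rose, none fell and 13 did not pass, with a median difference of 0.01. S100a1, a calcium sensor best known from muscle, was 10.97, 10.96, 10.92 and 10.91 in wild-type and 11.39, 11.42, 11.36 and 11.41 in transgenic replicates 1 to 4, a difference of 0.46 with an SE of 0.05 (limma adjusted p = 0.00535). It passed whichever array was left out, and lost the call with the letter of the array name (adjusted p = 0.120) or the replicate number (0.0597) as a block. S100a13, which takes part in the release of proteins that lack a signal peptide, rose by 0.72 (SE 0.11, limma adjusted p = 0.0180); that call was lost without wild-type replicate 1 or 4 or transgenic replicate 1 or 2, and with the letter (adjusted p = 0.0821) or the number (0.0736) as a block.

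Of 6 genes for receptors and signalling partners of calprotectin none passed. Myd88, the adaptor below Tlr4, read 9.55, 9.54, 9.47 and 9.60 in wild-type and 9.31, 9.26, 8.96 and 8.92 in transgenic replicates 1 to 4. The groups did not overlap, and the difference of -0.43 missed the threshold (limma adjusted p = 0.0612). Tlr4 itself differed by -0.13 (limma adjusted p = 0.628) and Ager, another receptor proposed for calprotectin, by 0.14 (limma adjusted p = 0.227).

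In the resistin family, Retnla, the gene next to Retnlg and a product of alternatively activated macrophages and fat cells, rose by 1.33 (SE 0.13, limma adjusted p = 0.00535), a call lost with the letter of the array name as a block (adjusted p = 0.104). Retn, the resistin gene of mouse fat cells, differed by 0.30 (limma adjusted p = 0.120). Of 4 family members 1 passed, and all 4 differences were above 0. Of 5 transcription factors of the neutrophil line none passed. Cebpa, which fat cells also need, differed by 0.42 (limma adjusted p = 0.0507) and Cebpe, which drives secondary granule genes, by 0.55 (limma adjusted p = 0.0898), both upward. Of 5 measured NADPH oxidase genes, shared by neutrophils and macrophages, none passed, though all 5 differences were below 0; Cyba differed by -0.61 (limma adjusted p = 0.0871) and Cybb by -0.62 (limma adjusted p = 0.105).

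Markers of other cells were read on the same arrays. All 10 macrophage markers were above the reference and 8 were lower in transgenic fat, with a median difference of -0.48. Past the threshold were 3 of the 10, against 3.34% of all genes: Fcgr1 and Cx3cr1 fell and Cd163 rose, all named after their values were seen. Cd68 differed by -1.11 (limma adjusted p = 0.0750). The sum of the 10 log2 levels ran from 91.2 to 98.1 in wild-type and from 89.4 to 92.5 in transgenic fat. Wild-type replicate 3 had the lowest wild-type values of Csf3r (6.09) and of the macrophage gene Cd68 (10.62, against 11.33 to 11.84 on the other wild-type arrays). The same array had the highest value of S100a8, 7.93. Among transgenic arrays Csf3r was lowest on replicate 2 (5.72), where Cd68 read 10.50, and Cd68 was lowest on replicate 4 (9.80). The order of Csf3r was thus that of Cd68 over the wild-type arrays but not over the transgenic arrays. The part of macrophages in either difference was not tested. Of 5 measured monocyte markers none passed, with sums from 36.4 to 37.8 in wild-type and from 35.5 to 38.3 in transgenic fat.

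Epididymal epithelium, which lies beside this fat pad, was checked through 9 measured markers. None passed, and all 9 had means at or below the reference, with sums from 35.7 to 38.5 in wild-type and from 35.4 to 38.0 in transgenic fat. Spink8 read 3.65, 3.40, 4.82 and 4.10 in wild-type and 3.34, 3.34, 4.45 and 3.65 in transgenic replicates 1 to 4. Adam7 read 3.89, 3.48, 4.77 and 5.17 and then 3.41, 3.51, 4.13 and 3.52. Other markers went the other way: wild-type replicate 3 was the lowest wild-type array for Lcn5 (4.38), Lcn10 (4.20), Rnase10 (3.59) and Cst11 (4.33). Only Spink8, Adam7 and Defb20 had wild-type replicates 3 and 4 and transgenic replicate 3 as the highest arrays of their group. S100a8 was highest on the same arrays. This was not particular to epididymal markers. The mean of 6 measured B cell markers, all above the reference, was 7.25 on wild-type replicate 3 and 7.19 on transgenic replicate 3. Its other values ran from 5.82 to 6.26 in wild-type, with 5.97 on replicate 4, and from 6.12 to 6.34 in transgenic fat. A comparison without wild-type replicates 3 and 4 and transgenic replicate 3 was chosen after their values were seen. In it S100a8 differed by -1.54 (limma adjusted p = 0.0263) and Csf3r by -0.54 (adjusted p = 0.0442). The count of the 10 genes past the threshold was again 2. Leaving out the arrays with the highest S100a8 of each group narrowed its spread and favoured its call, so that call decides nothing. The part of epididymal or B cell RNA in either difference was not tested. The red cell markers gave sums of 20.2 to 21.9 and 21.2 to 24.2 over 4 measured genes, and none of the 4 passed.

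**Figure D3:**
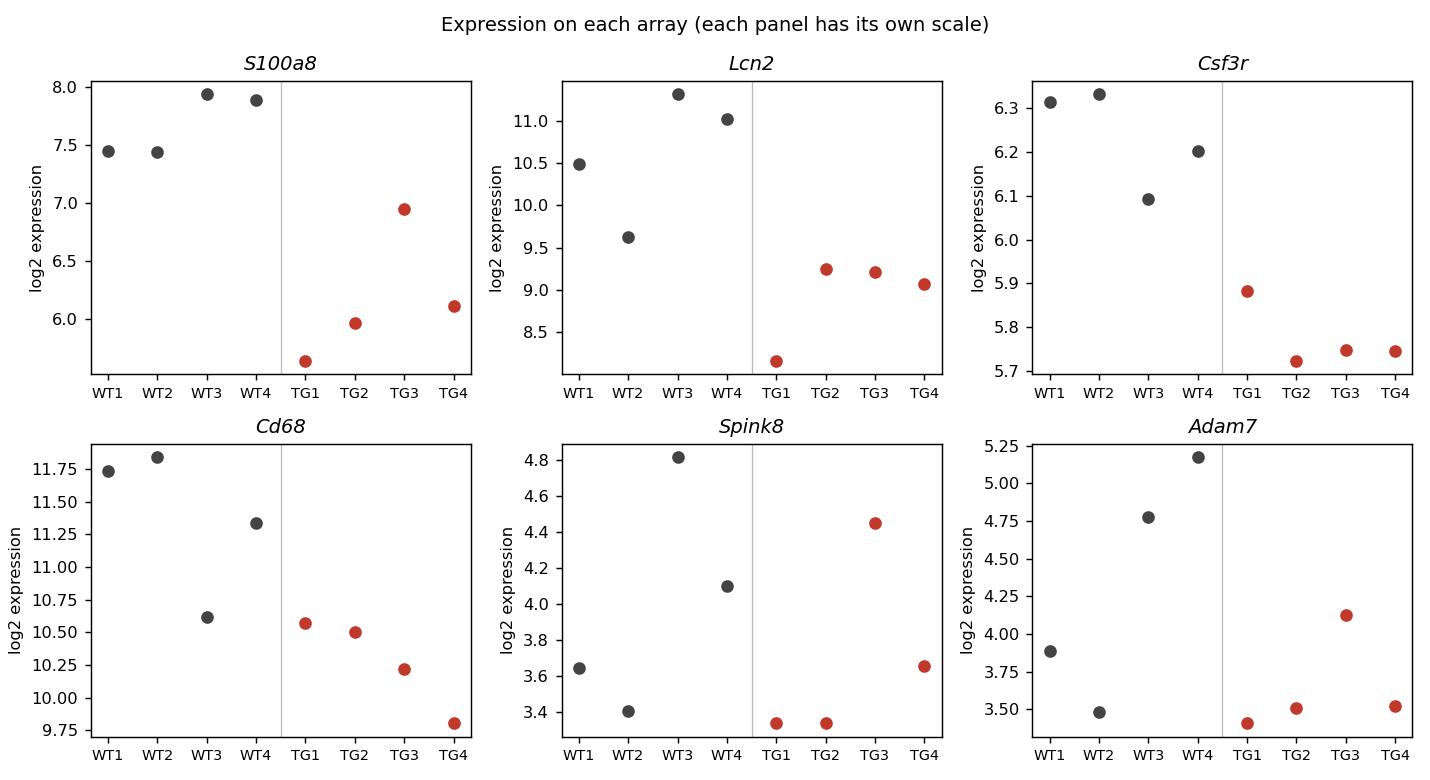
Log2 expression on each array of S100a8, Lcn2, Csf3r, the macrophage marker Cd68 and the epididymal markers Spink8 and Adam7, with wild-type replicates (WT1 to WT4) in grey and IL37TG replicates (TG1 to TG4) in red; each panel has its own scale. WT3 is the highest wild-type array for S100a8 (7.93), Lcn2 (11.31) and Spink8 (4.82) and the lowest for Csf3r (6.09) and Cd68 (10.62). All 9 measured epididymal markers had means at or below 4.62. WT3 was the lowest wild-type array for Lcn5, Lcn10, Rnase10 and Cst11, which are not drawn.

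The genes with a profile over the 8 arrays most like the mean of S100a8 and S100a9 were sought among brighter genes. The 10 listed genes were left out of the search, and 9 of them were below this limit in any case, as were most granule genes. S100a9 was near background, so the profile is chiefly that of S100a8. Among 734 genes at or above the median level with a range of at least 1 log2 unit, the highest Pearson correlations, given as descriptions over arrays that share the group difference, were those of Slc5a7, a choline transporter (0.975), Plppr4, a membrane protein of neurons (0.968), Cck, the gene of the peptide cholecystokinin (0.965), Adam23, an adhesion protein (0.960), and Oxtr, the oxytocin receptor (0.958). With group means removed, the correlations of these 5 with S100a8 alone were 0.883, 0.899, 0.933, 0.890 and 0.860. High values here are also favoured by the way the genes were picked. All 5 had groups that did not overlap and were lower in transgenic fat, as did 5.73% of all genes. Picking genes by likeness to S100a8 favours this, so it and the calls below are descriptions only. Slc5a7 (log2 -0.92, limma adjusted p = 0.0198) and Cck (log2 -3.82, limma adjusted p = 0.0122) passed the threshold, while Plppr4 (-0.95), Oxtr (-1.01) and Adam23 (-0.82) did not. The Slc5a7 call was lost without wild-type replicate 1 or 4 or transgenic replicate 2 and with the number of the array name as a block, and the Cck call without wild-type replicate 4 and with the letter or the number as a block. Without wild-type replicates 3 and 4 and transgenic replicate 3 together the Slc5a7 call was lost too (limma adjusted p = 0.0587). Like S100a8, each of these genes was highest among transgenic arrays in replicate 3, where Cck read 7.41 against 4.86, 5.39 and 5.94 in replicates 1, 2 and 4. The way the genes were picked favours this too.

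**Figure D4:**
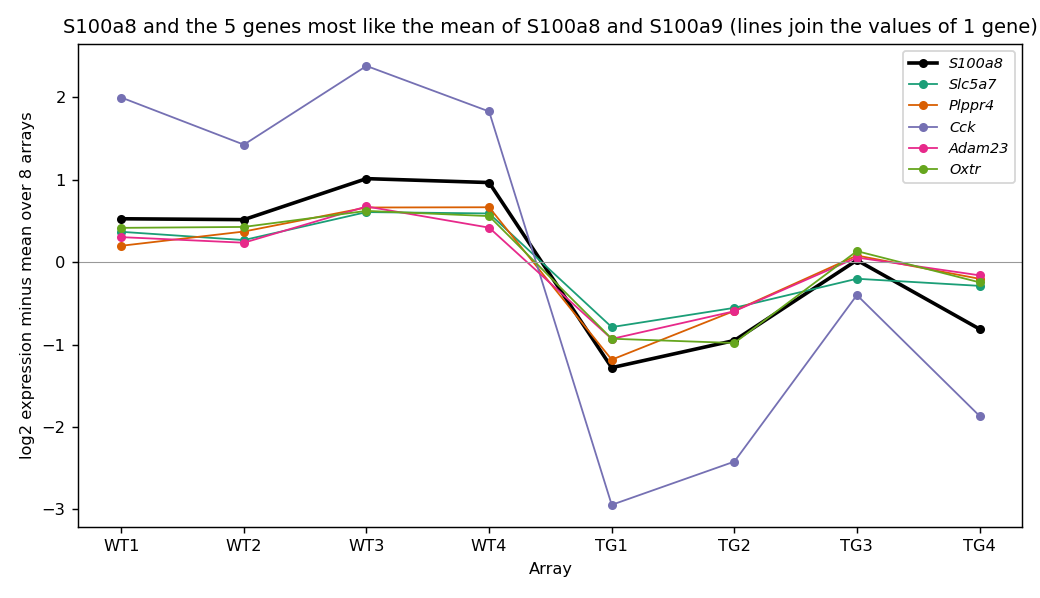
Log2 expression minus the gene's mean over 8 arrays for S100a8 (thick black) and for the 5 genes most like the mean of S100a8 and S100a9, by array; the lines join the values of 1 gene and imply no order of arrays. All 6 genes are lower on every IL37TG array (TG1 to TG4) than on any wild-type array (WT1 to WT4), and TG3 is the highest transgenic array for each. Picking the 5 genes by likeness favours both patterns.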

How the data were processed

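Expression was measured on 8 single-colour arrays, 4 wild-type and 4 IL37TG. Per the labels' protocols, 100 ng of RNA was made into whole-transcript cDNA and labelled with biotin. The deposited values are log2 expression per probe set; the submitters' processing notes name RMA, which corrects background, equalises arrays by quantiles and summarises probes, whose version and settings are not given in the sources used here. Scaling by quantiles hides any change that most genes have in common. Of 35556 probe sets, 21218 had 1 gene symbol, 1881 several and 12457 none; 21185 symbols were taken through Entrez identifiers, and the probe set with the highest mean was kept for each of 18820 genes. Groups were compared over all genes with limma 3.58.1 in R 4.3.3 (two-sided, no filter, Benjamini-Hochberg threshold 0.05). Intervals are unadjusted 95% intervals. The steps were tested on simulated data.

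The members and gene lists were chosen with earlier results of these data known. Named were the 10 genes, in each neutrophil-related list every gene past the threshold and the 2 with the lowest p, and the 5 genes most like the mean of S100a8 and S100a9. Alternatives covered normalisation, dim genes, probe sets, the prior, weights, blocks, thresholds and arrays left out.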

Additional observations from a re-analysis of the deposited data

Results flagged for a closer look

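Among 64 groups of 4 arrays examined (32 named genes in each group), 6 had 1 array far from the other 3, where chance flags about 1 in 20. In the transgenic group these were replicate 1 for Csf3r (5.883 log2 units, the highest) and for Lcn2 (8.164, the lowest), replicate 2 for Il23a (4.052, the highest) and replicate 4 for Cybb (9.912, the lowest). In the wild-type group they were replicate 3 for Ltf (4.027, the highest) and replicate 1 for Retnla (10.26, the lowest). Ltf and Il23a were below the level of 4.62 that marks dim probe sets.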

How the results depend on the processing

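The count of 2 genes past the threshold among the 10 was 1 with genes at or above the median and 1 with the replicate number as a block, 0 with the letter and 0 with the number of the array name as a block, and from 0 to 2 on leaving out 1 array. Over all genes the count of 629 became 1295 at or above the median, 1263 with array weights, 93 with the replicate block, 70 and 72 with the letter and the number as blocks, 1537 at a threshold of 0.1, and from 82 to 1188 on leaving out 1 array. The count of 3 genes with groups that did not overlap was 2 after centring on array medians and 2 with genes at or above the 25th percentile. It was 1 at or above the median, where S100a8 alone was tested, and from 3 to 5 on leaving out 1 array. S100a8 was -2.27 and -1.37 with the letter and number blocks and from -1.77 to -1.34 on leaving out 1 array. Csf3r was -0.46 with the replicate block (limma adjusted p = 0.0759), -0.26 and -0.47 with the letter and number blocks and from -0.51 to -0.43 on leaving out 1 array. The replicate numbers did not pair the arrays (correlations of deviations from 0.0566 to 0.102 over 4 pairs, and 2 of 8 arrays closest to their own number); that block also ended the calls of Hp (adjusted p = 0.116) and S100a1 (0.0597). Differences that changed sign were all near 0: S100a9 was 0.0056 and Ngp 0.023 without wild-type replicates 3 and 4 and transgenic replicate 3, an alternative chosen after seeing the data, and Ltf was -0.0094 after a second quantile normalisation and from -0.040 to 0.075 on leaving out 1 array, being below 0 without wild-type replicate 1 (-0.0033) or transgenic replicate 3. Some genes gained a call, most often Cebpa (in 6 of 20 alternatives), Lcn2 and Myd88 (in 5 of 20 each). The cause of these shifts was not tested. Low signal limits 6 of the 10 genes, and the wild-type mean of Retnlg (4.47) was below 4.62 as well.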
